A study of Mus musculus with 9 samples.

Results

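The 10 immediate early response genes examined here were Fos, Fosb, Jun, Junb, Egr1, Atf3, Ier2, Nr4a1, Dusp1 and Zfp36. They were found by symbol among the 56748 Ensembl identifiers of the deposited table, each under 1 identifier, and all 10 were among the 14431 genes tested. FPKM is a level scaled to gene length and library size, and a gene was tested if 3 or more of the 9 libraries reached an FPKM of 1. RNA with poly-A tails was sequenced from ovarian granulosa cells of wild type female C57BL/6 mice, in 3 groups of 3 libraries. The Control group received no cyclophosphamide, and is called vehicle control in the design text and untreated in the labels. The CTX group received cyclophosphamide, an alkylating drug that damages ovarian follicles, injected at 120 mg per kg. The CTX+HCQ group received the same injection and also hydroxychloroquine, a drug that accumulates in lysosomes, given orally every day at 40 mg per kg, starting 7 days ahead of the injection and ending 4 weeks after it. Whether each library represents a single animal or pooled animals is not given, and the p-values therefore reflect library-to-library spread that may be technical in origin.

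Immediate early genes are transcribed within minutes of a hormone, growth factor or stress signal, without new protein synthesis, because the factors that start them (SRF with its ETS partners, and CREB) are already in the nucleus and are switched on by kinases. Most of their products are transcription factors: FOS and JUN proteins pair to form AP-1, EGR1 is a zinc finger factor and NR4A1 an orphan nuclear receptor. Others end the response, as DUSP1 removes phosphate from MAP kinases and ZFP36 speeds the decay of mRNAs with AU-rich elements. In granulosa cells gonadotropins induce several of these genes. The same genes are also known to be induced when tissue is dissociated into cells.

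Promoters are shown for 5 of the genes: Fos, Fosb and Jun, with their highest levels in the same library, and Nr4a1 and Dusp1, with theirs elsewhere. Among the genes not shown, Atf3 also had its highest level in that library, and Junb and Zfp36 had theirs elsewhere. Windows of 8 of the 10 genes were taken by symbol from the RefSeq promoter table (GRCm38.p6). The search left out the chromosome that holds Egr1, and no window was used for Ier2. The promoters of Egr1 and Ier2 were therefore not examined for any site below. Each line gives the 250 bases before the start site, 5′ to 3′ on the gene's strand. Capitals mark TGACG, the core of the CREB binding site, on either strand (CGTCA on the other).
Fos, chr12:85473640-85473889, strand plus: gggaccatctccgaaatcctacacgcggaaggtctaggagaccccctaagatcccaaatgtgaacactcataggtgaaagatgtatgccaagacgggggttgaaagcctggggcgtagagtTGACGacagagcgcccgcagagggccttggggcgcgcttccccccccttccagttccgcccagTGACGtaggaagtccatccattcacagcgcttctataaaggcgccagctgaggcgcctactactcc
Fosb, chr7:19310046-19310295, strand minus: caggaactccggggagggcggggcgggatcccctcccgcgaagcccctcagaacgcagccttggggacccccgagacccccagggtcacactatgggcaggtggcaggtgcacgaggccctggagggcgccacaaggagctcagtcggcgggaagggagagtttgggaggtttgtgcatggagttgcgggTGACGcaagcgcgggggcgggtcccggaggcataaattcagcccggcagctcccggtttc
Jun, chr4:95052223-95052472, strand minus: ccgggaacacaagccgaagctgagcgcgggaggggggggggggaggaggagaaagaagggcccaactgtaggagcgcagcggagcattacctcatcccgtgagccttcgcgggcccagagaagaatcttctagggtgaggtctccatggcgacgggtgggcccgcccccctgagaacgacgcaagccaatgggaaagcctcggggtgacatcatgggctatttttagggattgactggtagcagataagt
Nr4a1, chr15:101266596-101266845, strand plus: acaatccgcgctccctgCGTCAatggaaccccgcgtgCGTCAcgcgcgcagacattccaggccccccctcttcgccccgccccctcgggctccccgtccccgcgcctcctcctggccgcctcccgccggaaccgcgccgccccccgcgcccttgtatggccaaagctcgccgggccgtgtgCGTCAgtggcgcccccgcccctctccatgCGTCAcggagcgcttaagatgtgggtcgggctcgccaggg
Dusp1, chr17:26508473-26508722, strand minus: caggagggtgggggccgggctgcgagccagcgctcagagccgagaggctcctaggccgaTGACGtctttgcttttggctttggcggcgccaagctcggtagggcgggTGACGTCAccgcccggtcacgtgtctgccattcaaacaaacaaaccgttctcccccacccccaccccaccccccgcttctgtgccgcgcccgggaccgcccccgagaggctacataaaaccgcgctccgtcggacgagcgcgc
TGACG was present in 6 of the 8 windows and in 17.8% of the 32851 promoter windows of this length in the table, which were not matched for base composition. Nr4a1 held 4 matches, at -233, -213, -69 and -40 from the start site. Dusp1 held 3, and those at -143 and -140 overlap in the full site TGACGTCA, which 1.55% of all windows contained. Fos held matches at -129 and -66, Fosb at -60, Junb at -106 and Atf3 at -7, while the windows of Jun and Zfp36 held none. A relation of these matches to the levels was not tested. The CArG box, which SRF binds, was matched in Zfp36 alone among the 8 windows and in 1.47% of all windows. The EGR site GCGNGGGCG was matched in Fosb, Nr4a1 and Zfp36 and in 4.7% of all windows, and the AP-1 site TGANTCA in none of the 8 and in 6.75% of all. A match is a run of letters in this window and not a measured binding site. Bases farther than 250 from the start were not searched, so a window without a match does not mean that the gene lacks the site.

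**Figure D1:**
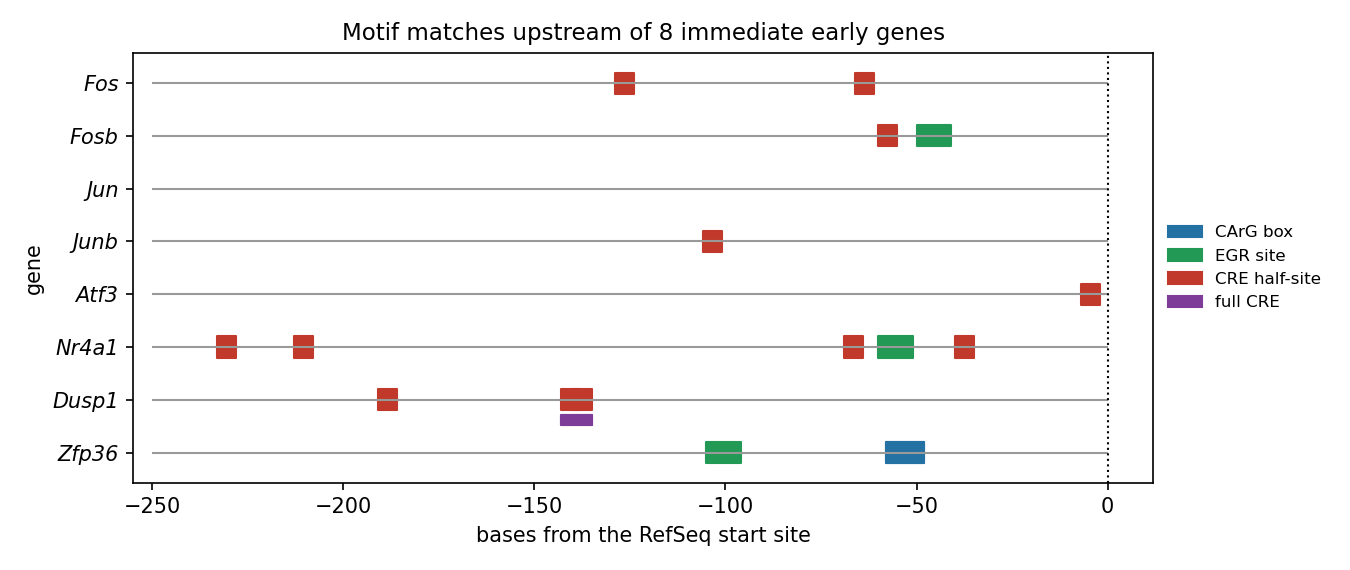
Positions of motif matches in the 250 bases before the RefSeq start site (x axis, bases from the start) of 8 genes (y axis). Nr4a1 holds 4 TGACG matches and Dusp1 holds the full site, while the line for Jun is empty.

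Recovered depth ran from 13574645 to 17280808 reads per library. Granulosa markers were abundant in all libraries (summed FPKM of 10 markers 4302 to 7174), but oocyte markers (5 genes, 133 to 224), theca, luteal, endothelial and macrophage markers were present in all libraries too. Oviduct markers (4 genes) stood at 397 in CTX 3, 75.1 to 121 in CTX 1, CTX 2 and Control 1, and 5.65 to 22.8 elsewhere. Mitochondrial transcripts took 28.9% of FPKM in CTX 3 and 11.7% to 17.5% elsewhere. CTX+HCQ 3 stood apart by gene length: relative to each gene's median, the median of the 4649 shortest genes was at -0.35 (log2) there. It was at 0.22 in CTX+HCQ 2, 0.19 in CTX 3 and 0.14 in CTX 1, and from -0.054 to 0 in the other libraries. For the longest genes it was at 0.17 in CTX+HCQ 3, -0.12 in CTX+HCQ 2, -0.19 in CTX 3 and -0.09 in CTX 1. Neutrophil markers were near 0 (4 genes, 0.199 to 2.97), with Ly6g at 0 in every library. In bulk RNA a change in the number of cells of a type and a change in RNA per cell cannot be told apart.

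Levels of the 10 genes spread most widely in the CTX+HCQ group. There the highest library exceeded the lowest by a median of 6.74 times over the 10 genes, against 1.65 times in Control and 1.82 times in CTX. Over all 13976 tested genes with a value above 0 in each library the same median was 1.72 in CTX+HCQ, 1.31 in Control and 1.49 in CTX. CTX+HCQ 2 held the highest level of 5 genes (Fos, Fosb, Jun, Atf3 and Ier2) and was above the gene's own median of 9 libraries for 9 of 10. CTX+HCQ 3 held the lowest level of 5 genes (Junb, Egr1, Ier2, Dusp1 and Zfp36) and was above the median for none. CTX+HCQ 1 held the lowest Fos and Fosb and the highest Junb and Nr4a1. The heat map of each gene against its own median shows these 3 libraries with different profiles inside 1 group.

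**Figure D2:**
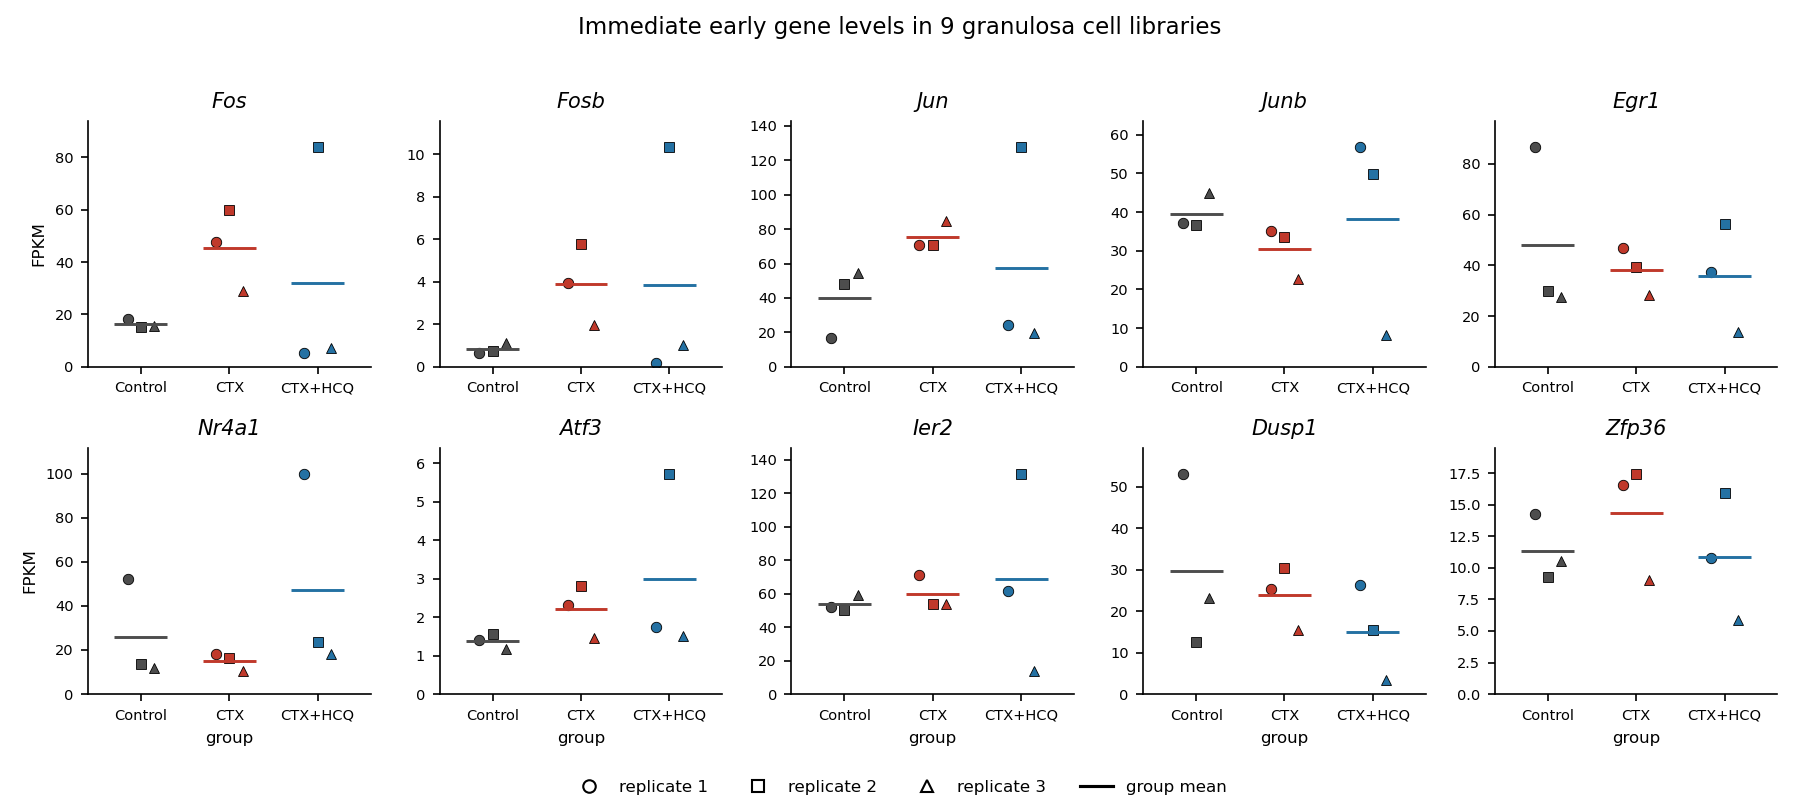
FPKM (y axis, from 0) of each gene in the 3 groups (x axis), with 1 point per library, the shape giving the replicate number and the line the group mean. Fos, Fosb and Jun have all 3 CTX points above all Control points, while the CTX+HCQ points of most genes are far apart.

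**Figure D3:**
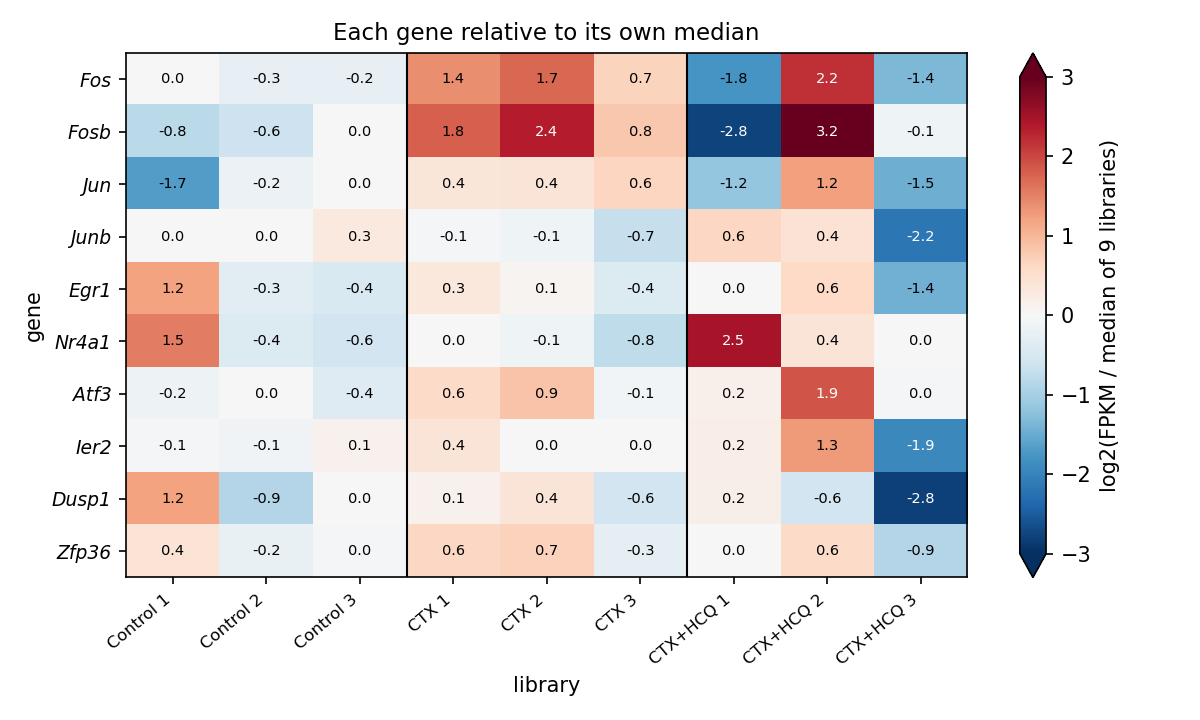
Log2 of FPKM over the gene's median of the 9 libraries (colour and printed value) for the 10 genes (y axis) in each library (x axis); black lines part the groups. CTX+HCQ 2 reaches 3.2 for Fosb, where CTX+HCQ 1 stands at -2.8.

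The first comparison, CTX with Control, asks how levels differed after cyclophosphamide. The time between the injection and cell isolation is not given, so an early and a late effect cannot be told apart. None of the 10 genes passed at an adjusted p of 0.05 in limma (adjusted p 0.653 to 0.96), and 0 of them had an unadjusted p under 0.05. Over all genes limma called 0% of the 14431 tested, and 7.8% had an unadjusted p under 0.05 (3.6% higher and 4.2% lower in CTX). The model shares 1 estimate of spread over all 3 groups, so the CTX+HCQ libraries enter these errors. With only CTX and Control in the fit, the log2 difference of Fos below was the same with an SE of 0.26 in place of 0.79, that of Fosb had 0.30 in place of 0.68 and that of Jun 0.39 in place of 0.64 (limma adjusted p 0.227, 0.235 and 0.309). In that fit 3 of the 10 genes and 2067 of all tested genes had an unadjusted p under 0.05, and 0 genes were called. Without CTX+HCQ 2 it was 3 of the 10 and 1693 of all, and with libraries weighted by their noise 4 of the 10 and 3935 of all, where 648 genes and 0 of the 10 were called. Limma voom on the recovered reads also called 0 genes in each of the 3 comparisons. By values alone, Fos, Fosb and Jun were higher in every CTX library than in every Control library, as were 8.72% of all tested genes. Junb was lower in every CTX library, as were 11% of all tested genes. The median log2 difference of the 10 genes was 0.21, beside -0.0045 over all genes, and 6 of 10 lay above 0, beside 49.5% of all genes.

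Fos, the partner of JUN proteins in the classical AP-1 dimer, stood at 18.3, 15.3 and 15.5 FPKM in Control 1 to 3 and at 47.7, 59.8 and 28.9 in CTX 1 to 3. The Control values were close together and the lowest CTX value was well above them. The means were 45.5 ± 15.6 and 16.4 ± 1.66 FPKM (SD, n = 3 each), a ratio of 2.78. The log2 difference, on the log2(FPKM + 1) scale used for all tests, was 1.37 (SE 0.79, 95% interval -0.39 to 3.13, limma adjusted p 0.653).

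Fosb, a second FOS family member that is nearly silent in unstimulated cells, stood at 0.642, 0.732 and 1.13 FPKM in Control 1 to 3, from 68, 82 and 116 reads. In CTX 1 to 3 it stood at 3.92, 5.8 and 1.98, from 412, 616 and 203 reads. The groups did not overlap, with CTX 3 lowest among the CTX libraries for both Fosb and Fos. The ratio of means was 4.68 and the log2 difference 1.35 (SE 0.68, interval -0.17 to 2.86, limma adjusted p 0.653). The added 1 compresses this low gene, and limma voom on the recovered reads gave 2.16 (adjusted p 0.643).

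Jun, which can pair with itself or with FOS proteins, stood at 17.0, 47.8 and 54.4 FPKM in Control 1 to 3 and at 70.5, 70.9 and 84.7 in CTX 1 to 3. Here it was Control 1 that stood low, and the CTX libraries were close together. The log2 difference was 1.06 (SE 0.64, limma adjusted p 0.656), and without Control 1 it was 0.55 (adjusted p 0.783). Junb, a JUN family member that can dampen JUN activity, ran the other way, with 37.2, 36.6 and 45.0 FPKM in Control and 35.1, 33.7 and 22.7 in CTX. Its groups parted by little (log2 difference -0.38, SE 0.58), and without CTX 3 the difference was -0.19.

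Atf3, a stress-induced ATF/CREB factor that pairs with JUN proteins, stood at 1.39, 1.55 and 1.18 FPKM in Control 1 to 3 and 2.32, 2.81 and 1.47 in CTX 1 to 3. CTX 3 overlapped the Control range, and the values rested on 42 to 103 reads. The log2 difference was 0.41 (SE 0.35), and 0.27 without CTX 2.

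Egr1 and Nr4a1 each had a single high Control library, the same in both. Egr1 stood at 86.5 FPKM in Control 1, 29.7 in Control 2 and 27.5 in Control 3, beside 47.0, 39.5 and 28.2 in CTX 1 to 3. Nr4a1 stood at 52.2, 13.6 and 11.98 in Control 1 to 3, beside 18.2, 16.4 and 10.5 in CTX 1 to 3. The groups overlapped for both genes, with log2 differences of -0.14 (SE 0.53) and -0.46 (SE 0.66). Without Control 1 both differences changed sign, to 0.38 for Egr1 and 0.19 for Nr4a1.

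Dusp1 shared the high Control 1 value, with 53.0, 12.6 and 23.1 FPKM in Control 1 to 3 and 25.4, 30.4 and 15.5 in CTX 1 to 3. Its log2 difference of -0.12 (SE 0.66) became 0.40 without Control 1. Ier2, a nuclear protein gene of the early response, stood at 50.4 to 59.4 FPKM in Control and 54.1 to 71.0 in CTX (log2 difference 0.14, 95% interval -1.22 to 1.49). Zfp36 stood at 9.27 to 14.3 in Control and 9.0 to 17.4 in CTX, a log2 difference of 0.28 (SE 0.35) that ran from 0.12 without CTX 2 to 0.56 without CTX 3. For Ier2 it ran from 0.00701 without CTX 1 to 0.21 without Control 3. Ier2 and Zfp36 overlapped between the groups.

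**Figure D4:**
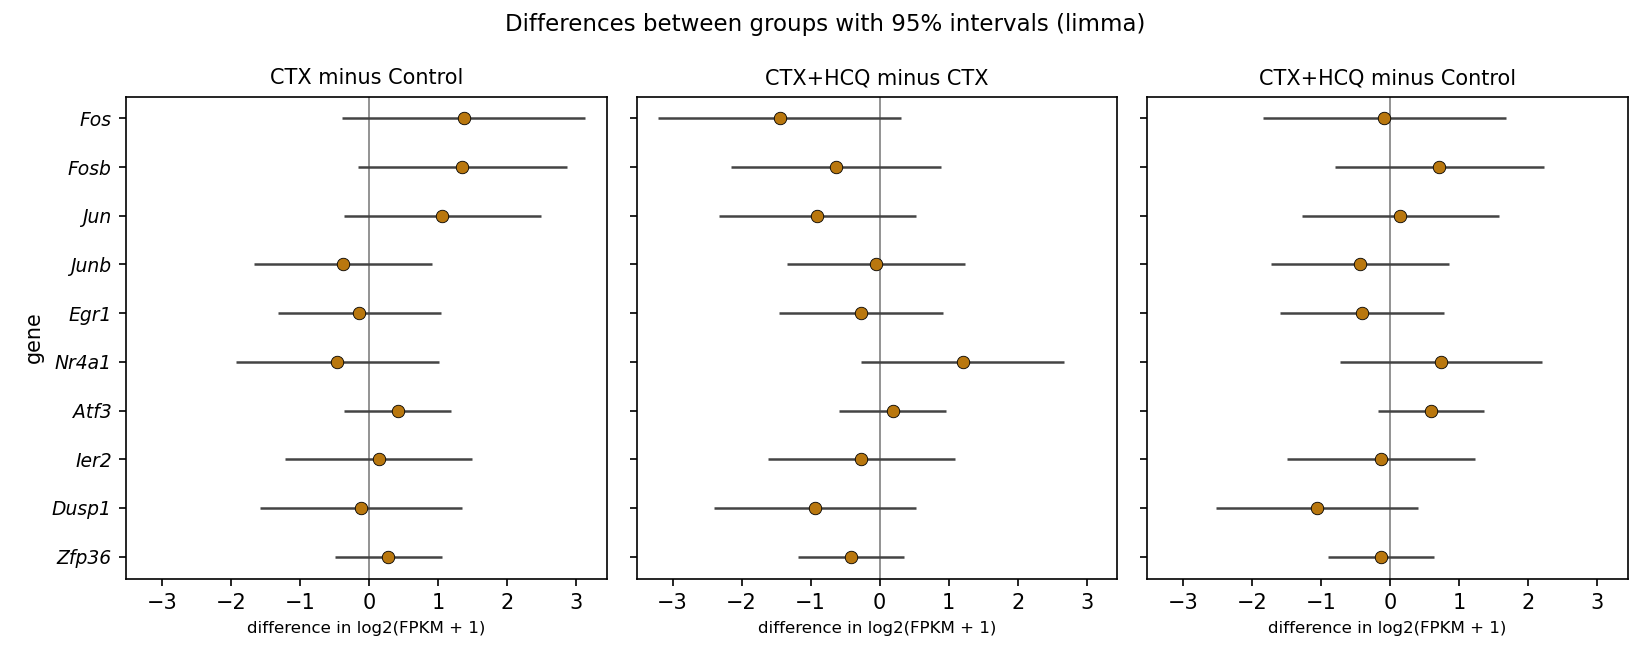
Difference in log2(FPKM + 1) between groups (x axis; points, estimates; lines, 95% intervals from limma with n = 3 per group) for the 10 genes (y axis), in 3 comparisons. Each interval includes 0, and Fos and Fosb lie farthest above 0 in CTX minus Control, at 1.37 and 1.35.

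The second comparison, CTX+HCQ with CTX, asks what hydroxychloroquine added in mice given cyclophosphamide. None of the 10 genes passed (limma adjusted p 0.906 to 0.996, 0 with an unadjusted p under 0.05), beside 0% of all genes called and 5.44% with an unadjusted p under 0.05 (1.84% higher and 3.6% lower in CTX+HCQ). None of the 10 was without overlap between these groups, beside 8.02% of all genes (3.45% higher and 4.57% lower). In CTX+HCQ 8 of 10 genes had a log2 difference below 0 (median -0.34), while 52.1% of all genes lay above 0.

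Fos stood at 5.33, 83.9 and 7.15 FPKM in CTX+HCQ 1 to 3. CTX+HCQ 1 and CTX+HCQ 3 lay below every CTX and Control library, and CTX+HCQ 2 lay above all of them. The log2 difference from CTX was -1.45 (SE 0.79, interval -3.21 to 0.31). It was -2.63 without CTX+HCQ 2 (limma adjusted p 0.0898), -0.76 without CTX+HCQ 1 and -0.94 without CTX+HCQ 3. The size of this difference thus depended on which CTX+HCQ library was left out.

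Fosb followed Fos, at 0.164, 10.3 and 1.03 FPKM in CTX+HCQ 1 to 3, from 17, 1128 and 99 reads. The highest library exceeded the lowest by 62.9 times, the widest ratio among the 10 genes. Its log2 difference from CTX was -0.63 (SE 0.68), -1.59 without CTX+HCQ 2 (limma adjusted p 0.198) and 0.05 without CTX+HCQ 1.

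Jun stood at 24.2, 128 and 19.7 FPKM in CTX+HCQ 1 to 3, again with CTX+HCQ 2 above and the other libraries below every CTX library. The log2 difference was -0.91 (SE 0.64), and -1.74 without CTX+HCQ 2 (limma adjusted p 0.198). Junb did not follow Jun, at 56.8, 49.9 and 8.13 FPKM, where CTX+HCQ 3 alone stood low. Its log2 difference was -0.05 (SE 0.58), and 0.81 without CTX+HCQ 3.

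Atf3 stood at 1.74, 5.71 and 1.51 FPKM in CTX+HCQ 1 to 3, with 62, 215 and 50 reads. Only CTX+HCQ 2 lay above the CTX range, and the log2 difference of 0.19 (SE 0.35) became -0.26 without it. Ier2 stood at 61.7, 131 and 14.1 FPKM, so that 1 library was above and 1 below all CTX and Control libraries (log2 difference -0.27, SE 0.61; -0.97 without CTX+HCQ 2 and 0.60 without CTX+HCQ 3).

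Nr4a1 had the largest upward difference of the 10 genes in this comparison. It stood at 99.7, 23.5 and 18.0 FPKM in CTX+HCQ 1 to 3, from 5800, 1440 and 967 reads, beside 10.5 to 18.2 in CTX. The groups overlapped at CTX 1, and the log2 difference was 1.201 (SE 0.66, interval -0.27 to 2.67, limma adjusted p 0.906). Without CTX+HCQ 1 it was 0.46. The library with the most Nr4a1 was thus the one with the least Fos and Fosb.

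Egr1 stood at 37.5, 56.3 and 13.8 FPKM in CTX+HCQ 1 to 3, a log2 difference from CTX of -0.27 (SE 0.53). Dusp1 stood at 26.3, 15.5 and 3.33 (log2 difference -0.94, SE 0.66, and -0.17 without CTX+HCQ 3). Zfp36 stood at 10.8, 15.9 and 5.86 (log2 difference -0.41, SE 0.35, and -0.0664 without CTX+HCQ 3). CTX+HCQ 3 held the lowest value of each of these 3 genes among the 9 libraries.

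The third comparison, CTX+HCQ with Control, uses libraries of both comparisons above and is not independent of them. None of the 10 genes passed (limma adjusted p 1 for each, 0 with an unadjusted p under 0.05), beside 0% of all genes called and 2.16% with an unadjusted p under 0.05 (1.09% higher and 1.07% lower in CTX+HCQ). None was without overlap, beside 6.31% of all genes (3.25% higher and 3.06% lower). The log2 difference was above 0 for 4 of the 10, beside 48.1% of all genes. The genes farthest from 0 were Dusp1 at -1.06 (SE 0.66), Nr4a1 at 0.74 (SE 0.66), Fosb at 0.72 (SE 0.68) and Atf3 at 0.60 (SE 0.35). Nr4a1 was at -0.003 without CTX+HCQ 1, Fosb at -0.24 and Atf3 at 0.14 without CTX+HCQ 2, and Dusp1 at -0.30 without CTX+HCQ 3.

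FPKM is per length, so levels of different genes can be ordered, though the order depends on the lengths used. These were the summed exon lengths of each gene, and that of Ier2 was searched for in the values. In Control the order of mean FPKM was Ier2 (53.9 ± 4.8, SD, n = 3), Egr1, Jun, Junb, Dusp1, Nr4a1, Fos, Zfp36, Atf3 and Fosb (0.834 ± 0.258). Neighbours from Ier2 to Fos overlapped in their ranges, and those from Fos downward did not. In CTX the order opened with Jun (75.4 ± 8.11), Ier2 and Fos, so Fos stood at rank 3 there and at rank 7 in Control, and all neighbours overlapped except Zfp36 and Fosb. In CTX+HCQ every pair of neighbours overlapped.

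Over the 9 libraries, correlations of log2(FPKM + 1) were computed for all 45 pairs of the 10 genes. The permutations shuffled all 9 libraries without regard to group, so group differences that a pair shares enter r and p. Fos and Fosb were the closest pair (Pearson r 0.928, exact permutation p 0.000187, adjusted over 45 pairs 0.00843; Spearman rho 0.883, exact permutation p 0.00308, adjusted 0.101). Without CTX 2 and CTX+HCQ 2, the libraries farthest from the Fos median, r was 0.859. No other pair passed after adjustment by Pearson, and none by Spearman. Jun followed both, with r 0.817 to Fos and 0.805 to Fosb (each exact permutation adjusted p 0.0705; rho 0.767 and 0.867, adjusted 0.241 and 0.101), and 0.707 and 0.699 without the same libraries. Egr1 was closest to Dusp1 (r 0.839, exact permutation p 0.00866, adjusted 0.0705; rho 0.6, adjusted 0.436), but r was 0.198 without Control 1 and CTX+HCQ 3, so that relation rests on those libraries. With Zfp36 Egr1 had r 0.829 (exact permutation p 0.00593, adjusted 0.0705; rho 0.783, adjusted 0.241), and 0.835 without the same libraries. The 3 pairs with an r below 0 all held Nr4a1, with Jun (-0.572), Fos (-0.399) and Fosb (-0.377). Their exact permutation adjusted p was 0.222 to 0.45 (rho -0.383, -0.1 and -0.3, adjusted 0.521 to 0.868). Without the libraries farthest from the median of Jun, Fos or Fosb, r was -0.619, -0.512 and -0.615. CTX+HCQ 1, the library highest in Nr4a1 at 99.7 FPKM, stayed in each of these. Whether the negative sign rests on that library was not tested.

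The mean of the 10 genes, each scaled to its own mean and SD over the 9 libraries, was highest in CTX+HCQ 2 at 1.092 and lowest in CTX+HCQ 3 at -1.421. As a description over 9 libraries that share depth and length effects, the 10 genes with the highest r to this mean were Psmd14 (r 0.986), Clec4a3, Hsdl2, Trap1, Rps4x, Uqcrfs1, Psmc3, Gars, Psma3 and Skp1a (0.959). Psmd14, Psmc3 and Psma3 encode proteasome subunits, Rps4x a ribosomal protein, Uqcrfs1 a respiratory chain subunit and Gars a glycyl-tRNA synthetase. None of the 10 is an AP-1, EGR or NR4A family gene. Psmd14 stood at 40.1 FPKM in CTX+HCQ 2 and 14.6 in CTX+HCQ 3, with 22.2 to 34.8 in the other libraries.

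Relatives of the 10 genes did not pass either. Of 12 other AP-1 family genes 8 were tested and 0 called in any comparison (limma adjusted p of at least 0.652), with a median log2 difference between CTX and Control of -0.0033. Jund, the JUN family member present in resting cells, stood at 53.3 ± 9.54 FPKM in Control, 67.7 ± 11.1 in CTX and 78.7 ± 45.7 in CTX+HCQ (SD, n = 3 each), with its highest value in CTX+HCQ 2 at 128. Fosl2 stood at 71.1 ± 3.5, 49.4 ± 11.2 and 63.1 ± 15.7, and was lower in every CTX library than in every Control library. Of the 8 tested, 3 were lower and 1 higher in CTX without overlap, beside 11% and 8.72% of all tested genes. Of 7 EGR and NR4A relatives and EGR corepressors 3 were tested and 0 called. Nab2, a corepressor that EGR1 induces, stood at 13.5 ± 3.22 FPKM in Control and 22.8 ± 4.08 in CTX (log2 difference 0.73, SE 0.22, limma adjusted p 0.639). It was higher in CTX without overlap, as were 8.72% of all tested genes. Nab1 stood at 14.7 ± 2.79 and 14.8 ± 4.03. Egr2, Egr3, Egr4 and Nr4a3 were below the filter.

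Of 36 further early response genes 35 were tested and 0 called. Between CTX and Control 7 were higher and 2 lower without overlap, beside 8.72% and 11% of all tested genes, and the median log2 difference was 0.13. Sgk1, a kinase gene, stood at 168 ± 27.6 FPKM in Control, 108 ± 65 in CTX and 97.01 ± 67.1 in CTX+HCQ, and Cebpb, a factor needed for ovulation, at 113 ± 55.4, 70.4 ± 7.69 and 109 ± 62.3. Other ATF and CREB factors (10 tested, 0 called) had a median of -0.11, with Atf4 at 72.1 ± 13.0 in Control and 85.9 ± 18.2 in CTX and Atf5 at 32.5 ± 8.08 and 22.6 ± 4.87. Other dual specificity phosphatases (7 of 9 tested, 0 called) had a median of 0.03, with Dusp7 at 12.8 ± 0.534 and 10.7 ± 2.38 and Dusp5 at 6.55 ± 0.893 and 6.16 ± 0.596. ZFP36 and IER relatives (5 tested, 0 called) had a median of -0.04, with Zfp36l1 at 44.5 ± 9.18 and 38.3 ± 8.61 and Ier3 at 27.5 ± 3.38 and 24.4 ± 5.11.

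Upstream, the MAP kinase genes (21 of 22 measured and tested, 0 called) had a median log2 difference of -0.0033 between CTX and Control and -0.02 between CTX+HCQ and CTX. Mapk3, which encodes ERK1, stood at 63.2 ± 3.29 FPKM in Control, 73.9 ± 5.91 in CTX and 54.4 ± 17.4 in CTX+HCQ, and Mapkapk2, a kinase under p38, at 47.3 ± 2.17, 47.6 ± 7.86 and 46.2 ± 8.62. SRF and its partners (6 tested, 0 called) had a median of -0.15, with Srf at 25.2 ± 3.13 in Control and 19.5 ± 2.73 in CTX and Elk4 at 7.68 ± 0.291 and 9.87 ± 1.69. Of the EGF-like ligands and their receptors 4 of 7 were tested and 0 called; Areg, Ereg and Btc, the ligands that carry the luteinizing hormone signal, were below the filter, and Erbb2 stood at 16.9 ± 1.07 in Control and 13.1 ± 2.49 in CTX, Egfr at 6.74 ± 0.98 and 4.59 ± 1.06. Of 14 ovulation response genes 6 were tested and 0 called, with a median of -1.33. Below 0 were 5 of the 6, beside 49.5% of all genes above 0. Of the 6, 3 were lower with an unadjusted p under 0.05 by limma (4.2% of all genes) and 2 lower without overlap (11% of all genes). The 3, named after their values were seen, were Adamts1 (log2 difference -2.82, SE 1.04), Ptgs1 (-2.16, SE 0.78) and Runx1 (-1.69, SE 0.65), each at a limma adjusted p of 0.639. Adamts1, a protease gene of ovulation, stood at 21.0, 135 and 203 FPKM in Control 1 to 3, at 17.3, 11.5 and 6.64 in CTX 1 to 3 and at 132, 12.4 and 7.22 in CTX+HCQ 1 to 3. Control 1 thus lay near the CTX libraries, as it did for Ptgs1 (3.41 beside 25.7 and 39.6) and Runx1 (4.74 beside 24.9 and 27.8). The highest were the receptor gene Lhcgr at 150 ± 89.5 in Control and 173 ± 80.3 in CTX, and Cited4 at 99.2 ± 33.5 and 51.7 ± 23.1. Messengers that ZFP36 is known to destabilise were mostly below the filter (3 of 7 tested, 0 called), with Vegfa at 48.0 ± 17.9 and 37.0 ± 6.69 and Cxcl1 at 1.91 ± 0.984 and 3.48 ± 0.731.

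Heat shock genes, which tissue dissociation is known to induce beside immediate early genes, had their highest sum in CTX+HCQ 2, the library highest for Fos, Fosb and Jun. All 14 had a log2 difference above 0 between CTX and Control (median 0.50), beside 49.5% of all genes. By limma 0 were called, and 3 were higher with an unadjusted p under 0.05, beside 3.6% of all genes. Of the 14, 8 were higher without overlap, beside 8.72% of all genes. The summed FPKM of the 14 was 2072 to 2103 in Control, 2453 to 2777 in CTX, and 2187, 3089 and 1697 in CTX+HCQ 1 to 3. By this sum, in which abundant genes weigh most, CTX+HCQ 3 was lowest. CTX+HCQ 1, the library lowest for Fos and Fosb, lay above every Control library in the sum. By gene, Hsp90ab1, Hspa5, Hsp90aa1 and Bag3 in CTX+HCQ 1 lay above the Control range and Dnaja1 below it. The others, with Hspa1a, Hspa1b and Hspa8 among them, lay inside it. Control 1, the library highest for Egr1 and Dusp1, had the lowest heat shock sum in Control, 2072, close to 2078 in Control 2 and 2103 in Control 3. Hsp90ab1 stood at 740 ± 15.1 in Control and 781 ± 122 in CTX, and Hspa8 at 390 ± 32.1 and 567 ± 57.4. Endothelial markers (6 genes, none at 0) summed to 18.0 to 47.8 FPKM in Control, with Control 1 highest, 30.2 to 57.4 in CTX and 19.7 to 47.9 in CTX+HCQ, with CTX+HCQ 2 highest. Smooth muscle markers (5 genes) summed to 40.2 to 124 in Control, 77.3 to 111 in CTX and 48.2 to 167 in CTX+HCQ, the last in CTX+HCQ 2, while macrophage markers (6 genes) ran from 63.7 to 111 over all libraries. Stroma markers (6 genes) summed to 188 to 215 in Control, 117 to 150 in CTX and 112 to 248 in CTX+HCQ. All 6 were below 0 between CTX and Control, beside 49.5% of all tested genes above 0. Of the 6, 3 were lower without overlap, beside 11% of all tested genes. By limma 0 were called and 0 had an unadjusted p under 0.05, beside 7.8% of all tested genes. Erythroid markers (4 genes) summed to 3147 in Control 3 and 280 to 805 in the other libraries. Theca markers (6 genes) summed to 2148 to 4526 in Control, 4646 to 5844 in CTX and 1997 to 4429 in CTX+HCQ. Most of that sum was Hsd3b1, at 2010 to 4354, 4458 to 5655 and 1851 to 4170 FPKM in these groups. Hsd3b1 and Aldh1a1 were higher in every CTX than in every Control library, as were 8.72% of all tested genes. Cyp17a1 (0.584 to 45.5 FPKM over all libraries), Insl3, Ptch1 and Gli1 overlapped between CTX and Control. Luteal markers (6 genes) summed to 339 to 785, 484 to 1277 and 367 to 640 in Control, CTX and CTX+HCQ. Between CTX and Control 6 of 6 endothelial, 4 of 4 tested smooth muscle, 5 of 6 luteal and 4 of 4 oviduct markers lay above 0. Their median log2 differences were 0.73, 0.42, 0.75 and 2.03. The 4 oviduct markers each had an unadjusted p under 0.05 by limma, beside 3.6% of all genes that were higher. The 4 erythroid markers all lay below 0 (median -1.355). In these lists 0 genes were called. Surface epithelium markers (4 genes) ran from 139 to 222 and lymphocyte markers (5 genes) from 3.76 to 9.77. The part of these lists in the levels of the 10 genes was not tested. With the trend on gene length removed from each library, a choice made after the data were seen, the differences between CTX and Control were 1.27 for Fos, 1.44 for Fosb and 1.03 for Jun (limma adjusted p 0.662 to 0.671).

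**Figure D5:**
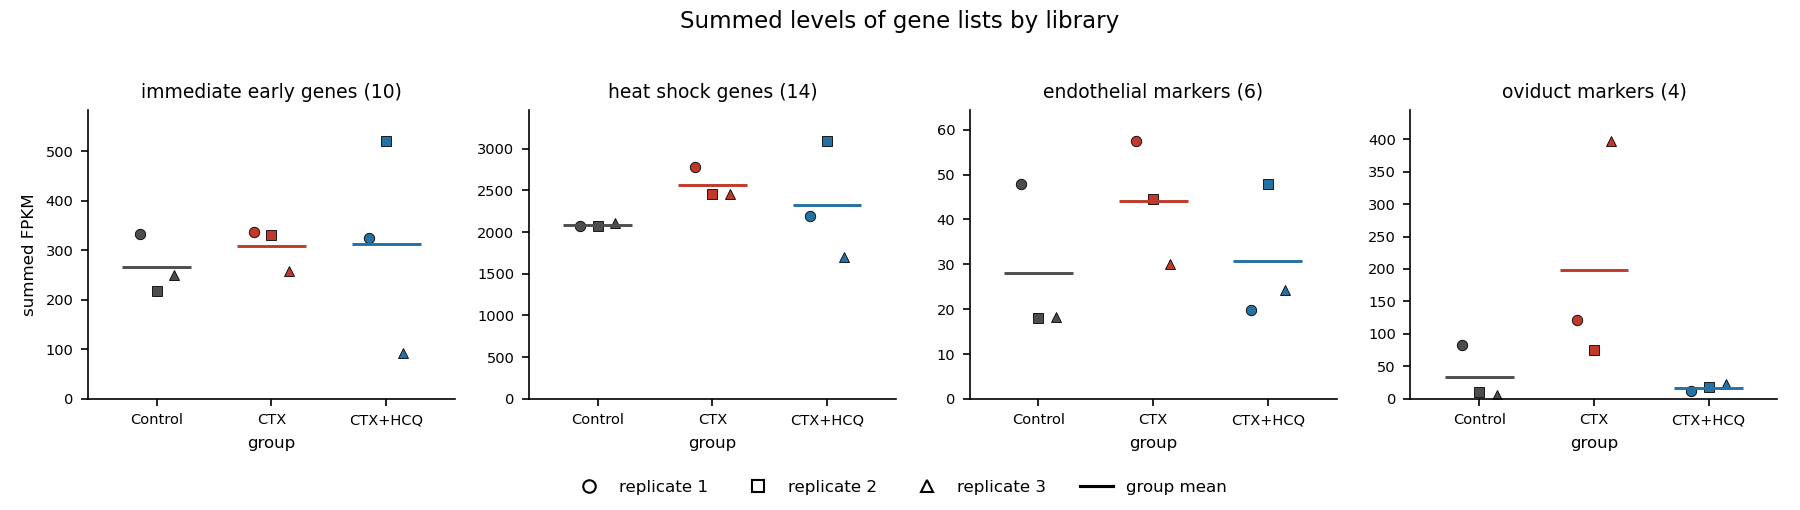
Summed FPKM (y axes, from 0) by group (x axes) of the 10 immediate early genes, 14 heat shock genes, 6 endothelial and 4 oviduct markers, with 1 point per library and the line the group mean. CTX+HCQ 2 is highest and CTX+HCQ 3 lowest in the first pair of panels, and CTX 3 stands at 397 for the oviduct markers.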

How the data were processed

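Transcripts of 9 granulosa cell libraries were analysed from 1 table of FPKM that the authors deposited. Processing used, per the submitters' processing notes, DESeq2 1.20.0, featureCounts 1.5.0-p3, HISAT2 2.0.5 and fastp 0.23.2, with GRCm39 (mm39); their roles, settings, strand and annotation are not given in the sources used here, so reads of overlapping genes cannot be told apart. GENCODE M21, of another build, gave symbols (52073 of 56748 identifiers) and exon lengths only. FPKM fell on whole reads within 0.02 reads for 99.8% of tested genes, with the annotated length for 13577 genes and with a length searched for in the values for 822, Ier2 among them. All 9 libraries entered 1 limma 3.58.1 model (R 4.3.3) on log2(FPKM + 1) with a variance trend, and p-values were adjusted by Benjamini-Hochberg over 14431 genes in each of 3 comparisons, at 0.05. The scripts were tested on simulated data. Within groups the chi-square of reads per degree of freedom was 15.2 to 161, so no libraries were merged. The genes and lists were chosen with earlier results of these data known. Values are given for each of the 10 genes, for the 2 genes of highest mean FPKM and any called in each other list, and r for the 10 tested genes most correlated with the mean of the 10. Adamts1, Ptgs1 and Runx1 were added after their values were seen. Alternatives covered pseudocount, filter, scaling, weights, groups in the fit, replicate block, voom on reads and each library left out.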

Additional observations from a re-analysis of the deposited data

How the results depend on the processing

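The count of called genes among the 10 was 0 in all 19 alternatives of each comparison, with the lowest adjusted p of 0.0639 (Fosb, CTX against Control, library weights). Over all genes, CTX against Control gave 648 calls with library weights, and each library left out gave 0 to 13 (13 without Control 1). CTX+HCQ against CTX gave 1 with weights and 0 to 10 on leaving out a library (10 without Control 1), and CTX+HCQ against Control gave 1 with weights. Voom called 0, with 1105, 739 and 289 genes at an unadjusted p under 0.05, beside 1126, 785 and 312 by limma.

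Replicate numbers did not pair the libraries: 3 of 9 same-numbered pairs had deviations correlated above 0.1 (range -0.457 to 0.135), and 0 of 9 libraries were closest to their own number. With the replicate block, 0 genes were called in each comparison, and 847, 668 and 293 had an unadjusted p under 0.05.

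Differences that changed sign had no call under any setting, and the cause was not tested. With library weights, CTX against Control gave 0.36 for Egr1, 0.15 for Nr4a1 and 0.51 for Dusp1. CTX+HCQ against CTX gave 0.56 for Junb and -0.21 for Atf3. CTX+HCQ against Control gave -0.32 for Fosb, -0.70 for Jun, 0.30 for Junb, 0.19 for Egr1, 0.14 for Ier2, 0.27 for Dusp1 and 0.0761 for Zfp36. Without both CTX 3 and CTX+HCQ 3, chosen after seeing the data, CTX against Control gave 0.0547 for Egr1 and 0.14 for Dusp1. CTX+HCQ against CTX gave 0.62 for Junb, 0.0918 for Egr1 and 0.53 for Ier2, and CTX+HCQ against Control 0.42 for Fos, 0.42 for Junb, 0.15 for Egr1, 0.73 for Ier2 and 0.21 for Zfp36. With the length trend removed, also added later, Ier2 was at -0.0422 in CTX against Control and Junb at 0.0746 in CTX+HCQ against CTX.

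Leaving out 1 library gave, for genes that changed sign, these ranges. In CTX against Control they were -0.43 to 0.38 for Egr1, -0.83 to 0.19 for Nr4a1 and -0.59 to 0.40 for Dusp1. In CTX+HCQ against CTX they were -1.59 to 0.0498 for Fosb, -0.52 to 0.81 for Junb, -0.69 to 0.29 for Egr1, -0.26 to 0.44 for Atf3 and -0.97 to 0.60 for Ier2. In CTX+HCQ against Control they were -1.27 to 0.60 for Fos, -0.24 to 1.398 for Fosb, -0.68 to 0.64 for Jun, -0.91 to 0.42 for Junb, -0.83 to 0.15 for Egr1, -0.83 to 0.73 for Ier2, -0.00306 to 1.39 for Nr4a1 and -0.44 to 0.21 for Zfp36.
For the others in CTX against Control, it gave -0.50 to -0.19 for Junb, 0.27 to 0.58 for Atf3, 0.00701 to 0.21 for Ier2 and 0.12 to 0.56 for Zfp36. In CTX+HCQ against CTX it gave -2.63 to -0.76 for Fos, -1.74 to -0.42 for Jun, 0.46 to 1.66 for Nr4a1, -1.50 to -0.17 for Dusp1 and -0.72 to -0.0664 for Zfp36. In CTX+HCQ against Control it gave 0.14 to 0.85 for Atf3 and -1.62 to -0.30 for Dusp1.
Fos, Fosb and Jun had a positive difference between CTX and Control in all 19 alternatives, from 1.14 to 1.65, 1.07 to 2.16 and 0.55 to 1.36. Their CTX and Control values did not overlap, so leaving out a library, library weights or another pseudocount could not reverse the sign. Low counts limit Fosb (from 17 reads) and Atf3 (from 42 reads).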
